A study of Mus musculus with 138 samples.

Results

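RNA polymerase II, its general transcription factors and Mediator are encoded by 84 of the 25900 genes counted in this study of mouse 2-cell embryos. The genes were taken by name from both count tables: the Pol II subunits (Polr2a to Polr2m), the Gtf2 genes, the numbered Taf genes, Tbp with its relatives Tbpl1 and Tbpl2, and the numbered Med genes, without pseudogene names. SMARCA5 is the ATPase of the ISWI chromatin remodellers, and the study asked what its loss from the egg or from the zygote does to the RNA of the embryo. Polyadenylated RNA was counted in libraries made by well from the RNA fraction of scNMT-seq, a protocol that profiles the transcripts of a sample together with its methylation and open chromatin. The labels do not say how many embryos a well held. In the deletion experiment, libraries labelled Smarca5 +/- (mothers with the maternal knockout, mated to wild-type males, called maternal deletion below) were set against libraries labelled Smarca5 +/+ (called wild type below). The titles of both groups name knockout females, so they do not say how the mothers differed, and the genotype of the embryo differs together with the label. In the TrimAway experiment, wild-type zygotes were injected so that an antibody directs the ubiquitin ligase TRIM21 to degrade SMARCA5. Its 3 groups were embryos that received the antibody to SMARCA5, embryos that received IgG, and uninjected embryos, all collected at the 2-cell stage, at least 24 hours after injection. The driver of the deletion is not given in the sources used here. Replicate numbers stand for pools of embryos, which the submitters call technical replicates, so the p-values measure the spread between these libraries only.

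RNA polymerase II makes all messenger RNA. Its core promoter machinery is built from TFIID (TBP and its TAF proteins), TFIIA, TFIIB, TFIIE, TFIIF and TFIIH, and Mediator carries signals from activators to the polymerase. In the mouse, the growing oocyte uses TBPL2 (TRF3) in place of TBP, together with TFIIA, and transcription then stops until the embryonic genome is switched on, mainly at the 2-cell stage. The poly(A) counts here do not tell RNA stored in the egg from RNA made by the embryo.

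Of 135 embryo libraries, 116 reached 100000 counts and were used: 22 wild type (109007 to 12004992 counts, median 545264), 28 maternal deletion (264566 to 8391480, median 1618485), 31 anti-SMARCA5 (761491 to 4009610), 20 IgG (236128 to 4139661) and 15 uninjected (365597 to 2351642). The 3 wells without an embryo held 453 to 1875 counts, of which 11 to 23 fell on members. Smarca5 RNA had a median of 94.4 CPM (read counts relative to the total of the library, scaled by TMM) in maternal deletion and 362 CPM in wild type. The log2 change was -2.06 ± 0.31 (± is the SE throughout), with an adjusted p of 2.63e-07 in edgeR's quasi-likelihood test, used for every fitted value below unless another is named. In 3 libraries of replicate 2 the RNA went against the label. The library labelled Smarca5 +/- in well A04 had 319 CPM of Smarca5 (up to 322 CPM in the others) and 22.4 CPM of the oocyte gene Gdf9, where the others with that label had at least 1076.1 CPM of Gdf9. The libraries labelled Smarca5 +/+ in wells G05 and H05 had 153 and 172 CPM of Smarca5, below the other wild-type libraries, and 627 and 287 CPM of Gdf9, above them. Trim21, whose RNA marks the injected mix, had at least 292 CPM in 30 of 31 anti-SMARCA5 libraries and 0 in the other (replicate 2). It was at 0 in all 10 IgG libraries of replicate 1, and ran from 0 to 2060.6 CPM (median 282) in the 10 of replicate 3, so the IgG group was not uniform. Markers of eggs moved with the deletion: 10 of 10 listed oocyte genes rose, and their summed level had a median of 11508.9 CPM (671 to 35179.6) against 1236.6 CPM (285 to 4688.9) in wild type. Of 8 tested 2-cell markers, 4 fell, with a summed median of 271 CPM (0 to 2015.3) against 604 CPM (88.3 to 2042.5). Their part in the results below was not tested. Cumulus and granulosa markers summed to medians of 30.7 CPM in maternal deletion (0 to 116; Ptx3 and Inha at 0) and 68.1 CPM in wild type (0 to 168; Foxl2 and Inha at 0); of 10 listed genes 1 could be tested (Amhr2, which fell). Sperm markers summed to at most 38.6 CPM in any deletion library and 3.69 CPM in any wild-type library.

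In maternal-deletion embryos, most members that changed were lower than in wild type. Members rose and fell among the polymerase subunits, the TBP family, the TFIID TAFs, the TFII-I family and Mediator, while those that passed in TFIIE, TFIIF, TFIIH, SAGA and SL1 fell and the single one in TFIIA rose. Of 79 members tested, 33 fell and 13 rose, with a median log2 change of -0.71, against 0.18 over all 8518 genes tested. Over those genes 56.6% passed the test, 30.3% higher and 26.4% lower, so the total share called was close to the background (46 of 79 members), while the direction ran the other way. Members that fell included Polr2k, Med29, Taf1b, both TFIIF genes and Tbp; those that rose included Tbpl2, Med12l, Gtf2a2, Taf9b, Taf13 and Polr2j. The other 5 members (Gtf2a1l, Gtf2ird2, Med18, Taf1c and Taf7l) were too low to test. The summed level of all members hardly differed, with medians of 11459.0 CPM in maternal deletion and 11511.8 CPM in wild type. The ranges of the groups overlapped for every member that passed. Without the 3 libraries that went against their label, 34 fell and 16 rose, beside 60.1% of all genes called. Scaling by total counts alone moved all genes by -0.22 on the log2 scale and gave 40 lower and 10 higher, and the members' median then differed from that of all genes by -0.95 (-0.89 with TMM). Each library is scaled to its own total, so fewer cells, less RNA per cell and a change of other genes cannot be told apart.

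**Figure D1:**
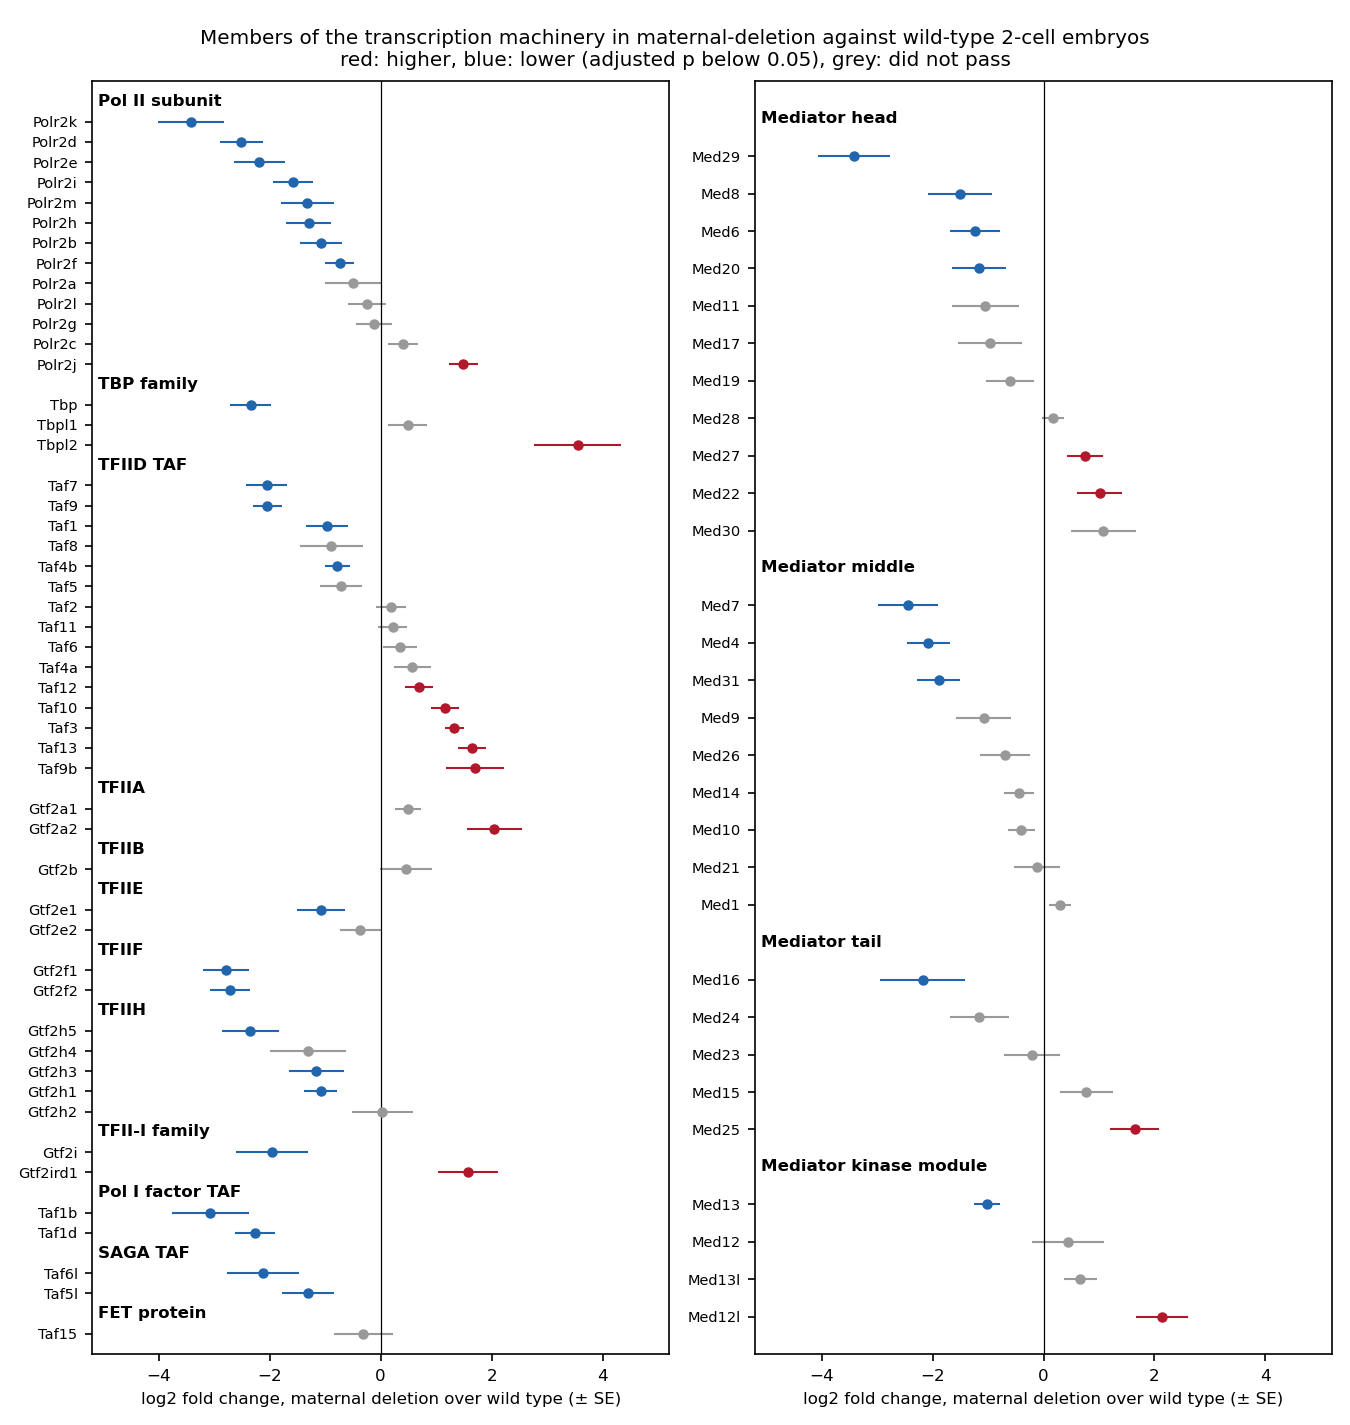
Log2 fold change of each tested member, maternal deletion over wild type, with its standard error, grouped by role (x axis, log2 scale; red rose, blue fell, grey did not pass). The points run from -3.42 for Polr2k and Med29 to 3.55 for Tbpl2.

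Among the subunits of the polymerase itself, 8 of 13 fell and 1 rose. Polr2k, a small subunit shared with polymerases I and III, had 1.69 to 419 CPM in wild type (median 85.2) and 0 to 66.5 CPM in maternal deletion (median 4.49). All 28 deletion libraries lay below the wild-type median, and 14 of them had at most 3 counts. Its log2 change was -3.42 ± 0.59 (adjusted p = 4.68e-06), or 10.7 times lower. Polr2d, which forms the stalk of the enzyme with Polr2g, had a median of 156 CPM in wild type (7.72 to 509) and 29.9 CPM in maternal deletion (0 to 112), and its change of -2.51 ± 0.38 (adjusted p = 3.69e-07) fell to -0.97 (adjusted p = 0.0712) when replicate 2 was left out. Wild-type Polr2d was itself uneven, with medians of 40.9 CPM in replicate 1 and 262 CPM in replicate 2. The shared subunits Polr2e (-2.19 ± 0.46), Polr2h (-1.30 ± 0.40) and Polr2f (-0.74 ± 0.26) also fell, as did Polr2i (-1.58 ± 0.36), a subunit of the transcript cleavage machinery. Polr2m, which is named with the subunits but encodes the associated factor Gdown1, fell by 1.32 on the log2 scale.

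Of the 2 large catalytic subunits, Polr2b fell and Polr2a did not pass. Polr2b, the second largest, went from 42.2 to 400 CPM (median 177) in wild type to 1.89 to 441 CPM (median 52.2), a log2 change of -1.08 ± 0.38 (adjusted p = 0.0126), which did not pass without replicate 1 (-0.66, adjusted p = 0.128). Polr2a, the largest subunit, which carries the C-terminal repeat domain, was low in both groups, at 0 to 136 CPM (median 22.8) in wild type and 0 to 73.7 CPM (median 25.6) in maternal deletion, and its difference of -0.50 ± 0.50 did not pass (adjusted p = 0.402). Polr2j ran the other way. It had 109 to 1339.8 CPM in wild type (median 263) and 143 to 2152.4 CPM in maternal deletion (median 945), with 26 of 28 deletion libraries above the wild-type median and a log2 change of 1.49 ± 0.26 (adjusted p = 6.24e-06). Polr2j is the subunit that pairs with Polr2c in the assembly platform of the enzyme, and Polr2c, at medians of 351 and 754 CPM, did not pass (0.40 ± 0.27, adjusted p = 0.192). Polr2g (-0.12) and Polr2l (-0.24) did not pass either.

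Tbp and Tbpl2 changed in opposite directions. Tbp, the TATA-binding protein of TFIID, had 55.2 to 560 CPM in wild type (median 221) and 0 to 157 CPM in maternal deletion (median 40.2). All 28 deletion libraries lay below the wild-type median, the highest of them being the library that went against its label, and the log2 change was -2.34 ± 0.37 (adjusted p = 9.18e-07), or 5.07 times lower. Over 10 alternative settings the change stayed between -2.59 and -1.96. Tbpl2, its oocyte relative, was above 3 counts in 3 of 22 wild-type libraries (0 to 11.9 CPM, median 0) and in 23 of 28 deletion libraries (0 to 53.6 CPM, median 20.6). Its fitted log2 change was 3.55 ± 0.78 (adjusted p = 1.53e-04); so close to 0 in wild type, the size depends on the small counts there. In wild type the highest Tbpl2 level, 11.9 CPM, was in well G05, which went against its label, and the deletion library in well A04 had 0. Tbpl1 (TRF2), the relative needed in male germ cells, had medians of 45.4 and 62.6 CPM and did not pass (0.49 ± 0.35, adjusted p = 0.229).

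The promoters of Tbp and Tbpl2 are shown because these genes moved apart, beside those of Taf9b, a TAF that rose, and Gtf2a1l, the germ-cell form of TFIIA described below. Each line gives the 250 bases before the annotated start, on the strand of the gene, from RefSeq on GRCm38.p6: chr17:15499638-15499887 (+) for Tbp, chr2:24096596-24096845 (-) for Tbpl2, chrX:106221159-106221408 (-) for the upstream of 2 Taf9b entries, and chr17:88668410-88668659 (+) for Gtf2a1l. Capitals mark a match, on either strand, to any of 4 motifs: TATAAA (the TATA box core), GGGCGG (the GC box of Sp factors), CCGGAAG (an ETS core) and CCAAT; in these 4 promoters the only matches were to the GC box.
Tbp: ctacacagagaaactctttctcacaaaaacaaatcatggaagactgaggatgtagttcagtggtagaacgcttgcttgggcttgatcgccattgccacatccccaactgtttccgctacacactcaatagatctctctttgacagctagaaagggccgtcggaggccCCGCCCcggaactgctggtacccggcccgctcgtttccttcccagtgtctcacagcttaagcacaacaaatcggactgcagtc
Tbpl2: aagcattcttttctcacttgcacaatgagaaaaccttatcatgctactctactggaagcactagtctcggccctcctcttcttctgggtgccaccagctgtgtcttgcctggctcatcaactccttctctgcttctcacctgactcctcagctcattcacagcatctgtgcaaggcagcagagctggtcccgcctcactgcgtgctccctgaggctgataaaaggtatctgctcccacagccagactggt
Taf9b: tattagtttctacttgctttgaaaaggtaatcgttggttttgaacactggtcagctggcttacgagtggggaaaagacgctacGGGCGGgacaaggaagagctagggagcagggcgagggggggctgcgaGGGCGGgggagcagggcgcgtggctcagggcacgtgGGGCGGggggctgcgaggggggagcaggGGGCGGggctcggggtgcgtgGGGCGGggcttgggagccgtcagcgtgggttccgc
Gtf2a1l: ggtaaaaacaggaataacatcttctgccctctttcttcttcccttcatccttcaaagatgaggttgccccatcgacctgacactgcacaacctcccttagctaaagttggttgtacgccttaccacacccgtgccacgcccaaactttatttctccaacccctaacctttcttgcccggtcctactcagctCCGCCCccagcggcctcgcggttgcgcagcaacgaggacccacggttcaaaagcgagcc
The upstream Taf9b entry held 5 GC boxes and 20 CpG dinucleotides, Tbp 1 and 11, Gtf2a1l 1 and 13, and Tbpl2 none and 3. The other Taf9b entry, chrX:106219843-106220092 (-), not shown, held no GC box and 12 CpG dinucleotides, so the count for Taf9b depends on the entry. A match describes the letters and is not a bound site, and an absent match says only that these letters are not in this window.

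The TAFs of TFIID split: of 15 tested, 5 rose and 4 fell. Taf3, which reads a histone mark of active promoters, had 144 to 525 CPM in wild type (median 278) and 333 to 1300.1 CPM in maternal deletion (median 746). All 28 deletion libraries lay above the wild-type median, and the log2 change of 1.33 ± 0.17 had an adjusted p of 5.73e-09. Taf13 and Taf10, both histone-fold subunits, rose by 1.65 ± 0.25 and 1.16 ± 0.25 on the log2 scale, and Taf12 rose by 0.69 ± 0.25. For Taf10, 45.3% of its 50-base sequences are shared with other genes, so its reads may not be its own alone. Taf7, which binds Taf1 and holds back its enzymatic activity, went from a median of 280 CPM (137 to 745) to 45.1 CPM (0 to 328), a log2 change of -2.05 ± 0.37 (adjusted p = 1.04e-05). Taf1, the largest TAF, fell from a median of 61.6 CPM to 31.3 CPM (-0.97 ± 0.38, adjusted p = 0.0253), a call lost without replicate 1 (-0.63, adjusted p = 0.285), without replicate 2 (-1.31, adjusted p = 0.059) and with a minimum of 500000 counts.

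Several TFIID subunits come in related pairs, whose members are given side by side. The table line named Taf9 carries an identifier that GENCODE M21 gives to Ak6, whose locus overlaps Taf9, and 56.6% of its 50-base sequences are shared with other genes, so its reads cannot be assigned to Taf9 alone. That line had 256 to 2554.5 CPM in wild type (median 617) and 56.2 to 730 CPM in maternal deletion (median 119), a log2 change of -2.04 ± 0.26 (adjusted p = 1.20e-08). Taf9b, its X-linked relative, had 0 to 216 CPM in wild type (median 31.6) and 0.997 to 648 CPM in maternal deletion (median 169), a log2 change of 1.70 ± 0.52 (adjusted p = 5.20e-03). Wild-type Taf9b was uneven, with medians of 166 CPM in replicate 1 and 9.66 CPM in replicate 2; the deletion medians were 288 and 120 CPM, and over 10 alternatives the change lay between 1.08 and 2.55. Taf4b, the TAF4 form of oocytes and other germ cells, fell from a median of 249 CPM to 126 CPM (-0.78 ± 0.22, adjusted p = 2.61e-03; -0.53 and adjusted p = 0.199 without replicate 2), while Taf4a had medians of 66.5 and 109 CPM (0.57 ± 0.33, adjusted p = 0.137). Per kilobase of transcript, Taf4b exceeded Taf4a in 22 of 22 wild-type libraries and in 16 of 28 deletion libraries. Taf7l, a TAF7 relative of germ cells, was above 3 counts in 2 of 22 wild-type libraries and in 16 of 28 deletion libraries, and was not tested. Taf2, Taf4a, Taf5, Taf6, Taf8 and Taf11 did not pass.

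**Figure D2:**
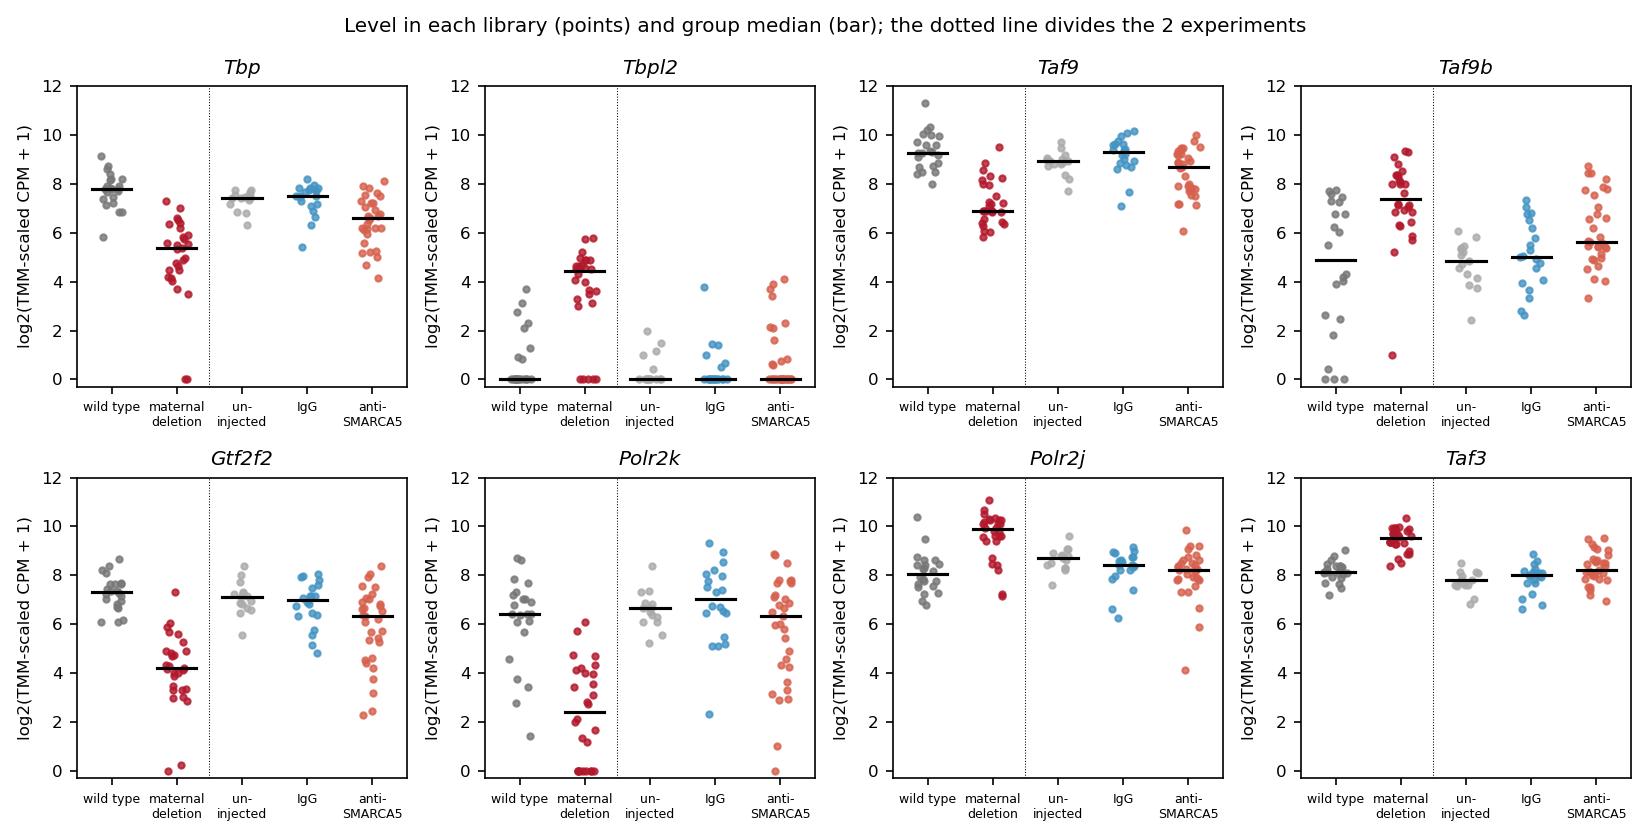
Level of 8 members in each library, as log2 of TMM-scaled CPM plus 1 (y axis), in the 5 groups (x axis), with the median as a bar; the dotted line divides the experiments. Tbp, the Taf9 line, Gtf2f2 and Polr2k lie lower in maternal deletion than in wild type, and Tbpl2, Taf9b, Polr2j and Taf3 higher, with overlapping groups.

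The factors that join TFIID at the promoter differed by complex. Both subunits of TFIIF, which escorts the polymerase to the promoter, fell. Gtf2f2 had 67.1 to 411 CPM in wild type (median 158) and 0 to 157 CPM in maternal deletion (median 17.4), with 28 of 28 deletion libraries below the wild-type median and a log2 change of -2.71 ± 0.36 (adjusted p = 3.03e-08). Gtf2f1 had 93.1 to 678 CPM (median 267) and 0 to 352 CPM (median 20.5), a change of -2.79 ± 0.42 (adjusted p = 3.37e-07). Gtf2f2 was 6.53 and Gtf2f1 6.94 times lower, and both changes passed under all 10 alternatives.

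In TFIIA, which steadies TBP on DNA, the single member that passed ran the other way. Gtf2a2, the small subunit of TFIIA, had 7.54 to 695 CPM in wild type (median 76.1) and 38.5 to 5606.9 CPM in maternal deletion (median 560), a log2 change of 2.05 ± 0.49 (adjusted p = 4.65e-04). Both groups were uneven, with medians of 534 CPM in replicate 1 and 43.5 CPM in replicate 2 of wild type. The deletion medians were 1066.8 and 147 CPM, so the pooled medians also carry the mix of replicates. The fitted effects were 1.73 in replicate 1 and 2.11 in replicate 2. Gtf2a1, the large subunit and among the most abundant members, had medians of 1491.3 and 1949.7 CPM and did not pass (0.49 ± 0.24, adjusted p = 0.0729); it passed with replicate as a block (0.53, adjusted p = 0.0417), without replicate 1 (1.10, adjusted p = 0.0107) and without the 3 libraries against their label. Gtf2a1l, the germ-cell form of the large subunit, was at or under 3 counts in all 22 wild-type libraries and above 3 counts in 20 of 28 deletion libraries (0 to 57.6 CPM, median 9.64); it was too low for the test. Gtf2b, which sets the start site, had medians of 55.1 and 63.0 CPM and did not pass (0.45 ± 0.47, adjusted p = 0.421).

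Of the 5 tested TFIIH core genes, 3 fell: Gtf2h5, the smallest subunit, at 22.7 to 283 CPM in wild type (median 87.5) and 0 to 199 CPM in maternal deletion (median 9.28; -2.35 ± 0.51, adjusted p = 1.27e-04), Gtf2h3 (-1.16 ± 0.50) and Gtf2h1 (-1.08 ± 0.30). In TFIIE, Gtf2e1 fell (-1.08 ± 0.43, adjusted p = 0.0270) and Gtf2e2 did not pass (-0.37 ± 0.37). Taf1b and Taf1d, TAFs of the polymerase I factor SL1, fell by 3.07 and 2.26 on the log2 scale. Taf1b was at most at 3 counts in 18 of 28 deletion libraries, and Taf1d went from a median of 185 CPM (18.6 to 925) to 41.2 CPM (2.34 to 252). The SAGA subunits Taf6l (-2.12 ± 0.65) and Taf5l (-1.31 ± 0.47) fell as well. Of the TFII-I family, Gtf2i fell (-1.96 ± 0.65) and Gtf2ird1 rose (1.58 ± 0.54), from a median of 4.87 CPM to 22.6 CPM. Taf15, an RNA-binding protein of the FET family, did not pass (-0.31 ± 0.53).

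In Mediator, 9 of 29 tested subunits fell and 4 rose. Med29 had 64.4 to 736 CPM in wild type (median 330) and 0 to 462 CPM in maternal deletion (median 3.02). Of 28 deletion libraries 27 lay below the wild-type median and 13 had at most 3 counts, and the log2 change was -3.42 ± 0.65 (adjusted p = 1.86e-05). Med29 is grouped here with the head module, which contacts the polymerase, together with Med8 (-1.51 ± 0.58), Med6 (-1.24 ± 0.45) and Med20 (-1.16 ± 0.49), which also fell; structures differ in where they place Med27, Med28, Med29 and Med30. Also in the head, Med22 rose from a median of 59.1 CPM to 87.3 CPM (1.01 ± 0.41, adjusted p = 0.0301), a call lost under 6 of 10 alternatives, among them without replicate 1 (adjusted p = 0.220) and without replicate 2 (adjusted p = 0.0850). Med27 passed (0.75 ± 0.32), with fitted effects of 1.05 in replicate 1 and 0.19 in replicate 2; as differences of mean log2 levels these were 0.95 and -0.29.

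In the middle module, Med7, Med4 and Med31 fell. Med7, the hinge of the module with Med21, had 57.1 to 747 CPM in wild type (median 195) and 0 to 185 CPM in maternal deletion (median 17.5), a log2 change of -2.44 ± 0.54 (adjusted p = 1.61e-04), with 28 of 28 deletion libraries below the wild-type median. Med4 changed by -2.08 ± 0.39 and Med31 by -1.89 ± 0.39. Med14, the backbone that joins the modules, had medians of 146 and 96.7 CPM and did not pass (-0.44 ± 0.27, adjusted p = 0.165), although it passed with total counts as the scale (-0.70, adjusted p = 0.0188) and in DESeq2 (-0.56, adjusted p = 0.0408). Med1, the subunit that meets nuclear receptors, had medians of 272 and 320 CPM and did not pass (0.29 ± 0.20, adjusted p = 0.219). In the tail, where many activators bind, Med16 fell (-2.18 ± 0.76) and Med25 rose from a median of 31.3 CPM to 113 CPM (1.64 ± 0.45, adjusted p = 1.82e-03). In the kinase module, which reversibly blocks the polymerase contact, Med13 fell from 295 to 154 CPM (-1.02 ± 0.23, adjusted p = 2.09e-04) and Med12l rose from 6.36 to 36.0 CPM (2.13 ± 0.47, adjusted p = 1.77e-04), as medians. Their relatives Med13l (0.66 ± 0.30, adjusted p = 0.0530) and Med12 (0.44 ± 0.65, adjusted p = 0.573) did not pass. Med12 overlaps another gene on its own strand, and its reads may be shared. The same holds for Polr2m, Med20 and Taf6l, which fell as given above. Since the strand of the counts is not known, overlaps on the opposite strand, as for Tbp, Gtf2f2, Polr2j and Med12l, may share reads too. The 50-base sequences shared with other genes were 24.2% for Med31, 21.6% for Polr2k, 18.2% for Med7, 16.3% for Tbp and 16.2% for Med12l.

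The 2 replicates of the deletion experiment were also 2 sequencing lanes. By differences of mean log2 levels they gave the same sign for 44 of the 46 members that passed. The exceptions were Med27 and Polr2i (0.18 in replicate 1 and -1.85 in replicate 2). The 46 members were chosen by a test on both replicates together, so a shared sign is partly built in. The same share over all genes was not taken. The fitted effects of replicates 1 and 2 kept one sign for Polr2i (-0.18 and -1.88) and Med27, but not for Med8 (0.19 and -1.81). In a test of the difference between the replicates' deletion effects, 0 of 79 members passed in edgeR (7 at an unadjusted p under 0.05), beside 0.763% of all genes. With replicate 1 left out, 33 members passed (11 higher, 22 lower; 39.9% of all genes), and with replicate 2 left out 27 of the 64 still tested (11 higher, 16 lower; 43.8% of all genes). In a fit with replicate as a block, 14 rose and 30 fell, beside 57.6% of all genes called.

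Genes that act with the members, but lie outside the naming rule, mostly fell or did not pass. Of 18 tested genes of pausing and release, 13 fell, among them Nelfe of the pausing factor NELF (-2.63 ± 0.67), Supt4a of DSIF (-2.12 ± 0.41) and Cdk9, the kinase that releases paused polymerase (-1.97 ± 0.51), and none rose. Of 12 elongation genes, 6 fell, the furthest being Paf1 (-2.01 ± 0.40) and Iws1 (-1.52 ± 0.33). Of 12 genes for polymerase assembly and the phosphatases of its C-terminal domain, 7 fell, such as the assembly GTPase Gpn3 (-3.03 ± 0.58) and the chaperone partner Rpap3 (-2.53 ± 0.42), and Rpap2 rose (1.25 ± 0.36). The subunits special to the other polymerases fell too: 5 of 5 for polymerase I, with Polr1e at -3.46 ± 0.66, and 8 of 9 for polymerase III, with Polr3e at -2.52 ± 0.53. In TFIIH, 2 of 4 fell (Ercc3, a helicase, and Cdk7, a kinase), in the kinase module of Mediator 1 of 3 (Ccnc), and in SAGA 4 of 11, led by the deubiquitinase Usp22 (-4.11 ± 0.59). The medians of these 8 lists lay between -1.99 and -0.33, beside 0.18 for all genes. Over all genes 56.6% passed, 26.4% lower and 30.3% higher, and these counts are to be read beside those shares.

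After TrimAway fewer members passed, and the count of calls depended on how the embryo pools were handled. Between anti-SMARCA5 and IgG, 1 of 80 members passed, Med14, beside 3.03% of all 10447 genes; the members' median was -0.33 and that of all genes 0.04, and 23 members had an unadjusted p under 0.05. Med14 had 105 to 318 CPM with IgG (median 195) and 40.9 to 235 CPM with the antibody (median 119), with 30 of 31 antibody libraries below the IgG median and a log2 change of -0.64 ± 0.16 (adjusted p = 0.0268). Without replicate 1 it was -0.34 (adjusted p = 0.466) and no member passed. Leaving out replicate 2 gave 5 members of 80, beside 5.85% of all genes, and leaving out replicate 3 gave 4 of 81, beside 3.78%.

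Once the replicate number entered as a block, 23 members fell and 7 rose, beside 25.8% of all genes (13.6% lower, 12.1% higher). In that fit Tbp changed by -1.16 (adjusted p = 1.18e-03), Polr2d by -1.28 (adjusted p = 3.31e-03), Med29 by -1.81 (adjusted p = 0.0223), Med14 by -0.65 (adjusted p = 5.99e-03) and Taf4b by -0.67 (adjusted p = 0.0338), and Taf9b by 1.42 (adjusted p = 4.89e-03), Med15, a tail subunit, by 1.03 (adjusted p = 6.72e-03) and Taf3 by 0.65 (adjusted p = 9.12e-03). Without the block, Tbp stood at -0.69 ± 0.23 (adjusted p = 0.0683), Taf9b at 1.12 ± 0.41 (adjusted p = 0.0877), Polr2a at -0.09 ± 0.35 (adjusted p = 0.881) and Gtf2b at 0.42 ± 0.24 (adjusted p = 0.235). Smarca5 itself changed by -1.02 with the block (adjusted p = 0.0138) and -0.65 ± 0.27 without it (adjusted p = 0.124). TrimAway acts on the protein, so this RNA does not check the depletion.

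Pool by pool, the same members were as follows. In replicate 3, Tbp had medians of 34.8 CPM with the antibody (16.6 to 81.5) and 150 CPM with IgG (79.7 to 219), and in replicate 1 of 103 CPM (35.9 to 242) and 220 CPM (42.2 to 294). Med29 had medians of 0 against 142 CPM in replicate 3 and 119 against 258 CPM in replicate 1. Taf9b had 217 against 81.3 CPM in replicate 3 and 41.4 against 19.1 CPM in replicate 1. Within replicate 3 alone, 16 members fell and 7 rose (16.5% of all genes passed), and within replicate 1 alone 1 member passed (0.857% of all genes). Whether the pools' effects differ was not tested, and the IgG pools also differed in Trim21 RNA, as given above. Oocyte markers summed to medians of 2048.8 CPM with the antibody (1034.8 to 14242.6) and 1606.3 CPM with IgG (1022.7 to 10439.6), all 10 above 0 in both groups and none past the test. With the block, 1 of the 10 oocyte markers rose and 4 of the 10 2-cell markers fell, whose sums had medians of 673 CPM (1.75 to 2838.5) and 728 CPM (110 to 5955.5). Their part in the result was not tested. Of the lists outside the naming rule, Rprd1a, which binds the C-terminal domain of the polymerase, alone passed without the block (-0.68 ± 0.20, adjusted p = 0.0473). With the block 5 of 9 polymerase III subunits and 6 of 19 pausing and release genes fell, beside 13.6% of all genes.

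**Figure D3:**
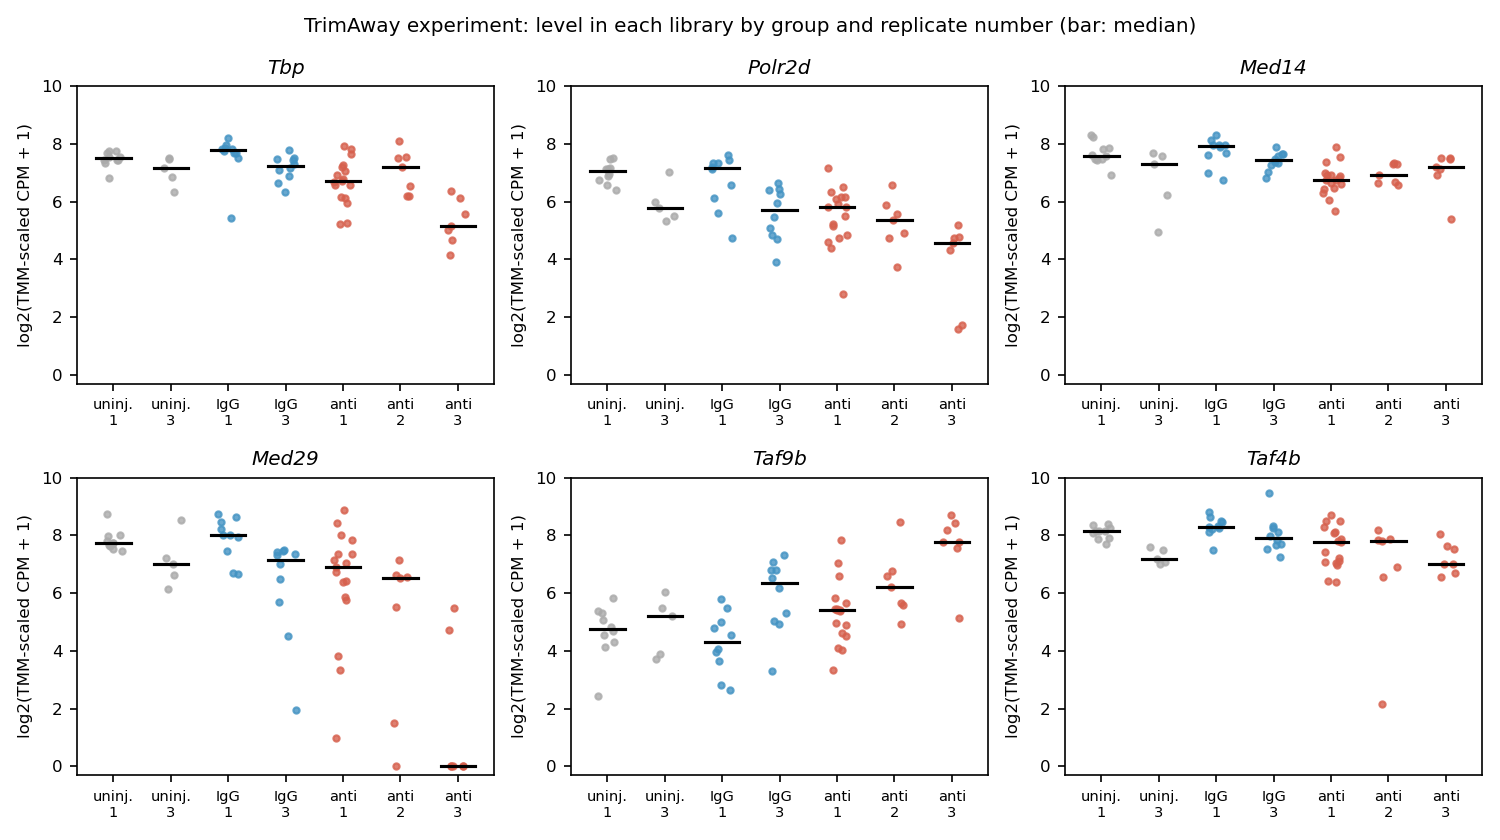
Level of 6 members in the TrimAway libraries, as log2 of TMM-scaled CPM plus 1 (y axis), by group and replicate number (x axis; uninj., uninjected; anti, anti-SMARCA5), with medians as bars. Tbp and Med29 are lowest, and Taf9b highest, in the 7 anti-SMARCA5 libraries of replicate 3.

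Against uninjected embryos, 9 of 81 members rose and 12 fell in the anti-SMARCA5 group, beside 27.9% of all genes (17.5% higher, 10.4% lower). The balance of directions moved with the scale. DESeq2 size factors gave 7 higher and 16 lower, beside 25.7% of all genes called. Total counts alone, which shifted all genes by -0.41 on the log2 scale, gave 2 higher and 24 lower, beside 21.2%. With the block 7 rose and 23 fell (31.9% of all genes). Markers moved here too: of 10 oocyte markers 3 rose (Gdf9, Bmp15 and Zp2) and 1 fell (Zp3), with summed medians of 2048.8 CPM (1034.8 to 14242.6) against 1653.7 CPM (663 to 2930.6) in uninjected embryos. Of 10 2-cell markers 2 rose (Zscan4f and Zscan4d), with summed medians of 673 CPM (1.75 to 2838.5) against 340 CPM (156 to 1059.3). No marker of either list was at 0 in a whole group, and their part in the result was not tested. Gtf2b had 18 to 140 CPM in uninjected embryos (median 53.8) and 28.5 to 271 CPM with the antibody (median 115), a log2 change of 1.15 ± 0.25 (adjusted p = 1.61e-03) with 28 of 31 antibody libraries above the uninjected median. Gtf2a2 (1.53 ± 0.41) and Gtf2a1 (0.92 ± 0.25) of TFIIA rose, as did Taf9b (1.87 ± 0.43), Taf15 (0.95 ± 0.27) and Taf4a (0.83 ± 0.28); with total counts as the scale Gtf2a2, Gtf2a1, Taf15 and Taf4a did not pass.

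Those that fell against uninjected embryos included Taf8 and several polymerase subunits. Taf8, which carries Taf10 into the nucleus, went from 21.1 to 65.5 CPM (median 35.4) to 0 to 42.6 CPM (median 9.95), a log2 change of -1.46 ± 0.36 (adjusted p = 3.73e-03). Polr2d went from a median of 117 CPM (39.0 to 183) to 35.6 CPM (1.98 to 143), with 30 of 31 antibody libraries below the uninjected median (-1.31 ± 0.30, adjusted p = 2.32e-03). Polr2e (-1.26 ± 0.37), Polr2i (adjusted p = 0.0238), Med11, a head subunit (-1.43 ± 0.46), and Gtf2h5 (-1.05 ± 0.29) fell as well. Tbp, at medians of 173 and 94.9 CPM, did not pass (-0.62 ± 0.25, adjusted p = 0.0540) and passed with the block (-0.94, adjusted p = 3.35e-03). Without replicate 1, no member passed, beside 0.00948% of all genes. Within replicate 3 alone, a setting chosen after seeing the data, 12 rose and 17 fell, beside 26.7% of all genes. IgG and uninjected embryos, compared to see what injection alone does, gave no call: 0 of 81 members passed in edgeR and 0% of all 9915 genes. At an unadjusted p under 0.05 stood 10 members and 1440 of all genes. In DESeq2 2 members passed, beside 2.09% of all genes, and 1 passed without a filter on low counts, beside 4.2%. The 3 TrimAway comparisons share their groups and are not independent.

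The deletion and TrimAway experiments share no library, so the size of a member's change in each could be compared by a test of the difference. That difference passed for 21 of 83 members, beside 19.2% of all genes, and for 10 members, beside 11.7% of all genes, when each experiment had its replicate block. The deletion effect was the larger in each of the 21, in the fit without the block. The 21 were chosen by this same test, and the share over all genes was not taken. The effects below are also without the block, with which Tbp changed by -1.16 with the antibody over IgG. Tbp changed by -2.41 in the deletion experiment and -0.70 with the antibody over IgG, a difference of -1.72 ± 0.44 (adjusted p = 3.20e-03). Gtf2f2 changed by -2.79 and -0.48 (difference -2.30 ± 0.49, adjusted p = 4.10e-04), and Polr2j by 1.44 and -0.07 (difference 1.51 ± 0.34, adjusted p = 8.92e-04). Taf13 differed by 1.44 ± 0.35 (adjusted p = 2.36e-03) and Gtf2f1 by -2.53 ± 0.61 (adjusted p = 1.86e-03). The experiments also differ in lanes, in the stage at which SMARCA5 was lost and in their controls, which cannot be told apart from the way SMARCA5 was lost.

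**Figure D4:**
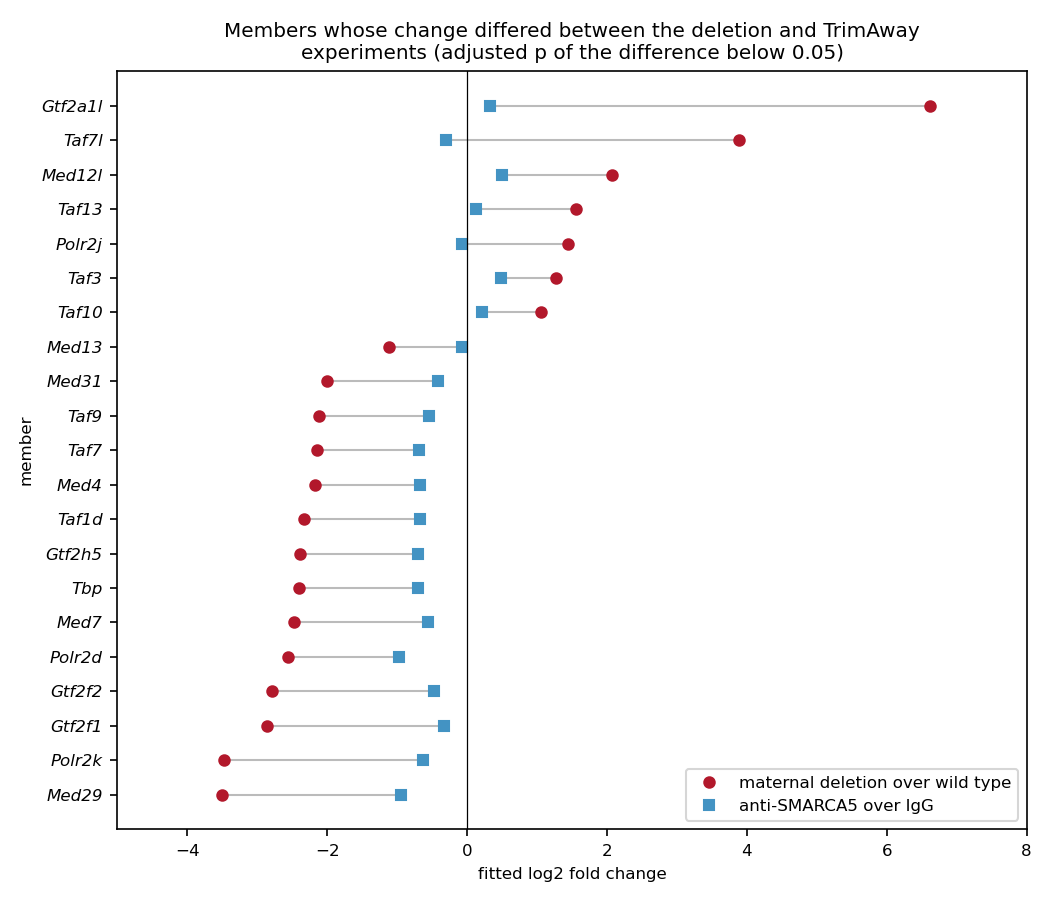
Fitted log2 fold changes (x axis) of the 21 members (y axis) whose change differed between the experiments: red, maternal deletion over wild type; blue, anti-SMARCA5 over IgG. The red point lies farther from 0 than the blue one in every row. Both are from the fit without the replicate block.

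Among control embryos the members spanned a wide range of levels. Per kilobase of the longest principal coding transcript in GENCODE M21, the highest in uninjected embryos were Polr2j (652 CPM per kilobase), the Taf9 line (375), Polr2c (234) and Polr2k (207), and Polr2a stood far lower, at 8.66. In wild type Polr2a was at 3.38 and Taf3 at 58.0 CPM per kilobase, and in maternal deletion Taf3 was at 156. Across the 22 wild-type libraries, the members whose CPM ranked most like Tbp were Taf1 (Spearman's rho 0.73), Gtf2h5 (0.64) and Tbpl1 (0.58), and across the 15 uninjected libraries Med31 (0.72), the Taf9 line (0.69) and Polr2d (0.67). Depth and replicate number also vary across these libraries. No order was taken for Tbpl2, which was above 3 counts in too few of them.

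Promoter letters were compared over the 72 members with a RefSeq entry (86 promoters). The GC box was in 60.5% of member promoters and in 32.7% of all 32851 promoters of the table, and the ETS core in 20.9% and 6.91%. The TATA box core (14% and 12.4%) and CCAAT (30.2% and 33.8%) stood close to the background. The median number of CpG dinucleotides was 18 for members and 6 for all. Of 34 promoters of members that fell after the deletion, 73.5% held a GC box, and of 15 promoters of members that rose, 53.3%. In the same order, the ETS core was in 11.8% and 26.7%, the TATA box core in 8.82% and 13.3%, and CCAAT in 29.4% and 26.7%. The median CpG counts were 18 and 20. These differences were not tested.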

How the data were processed

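Alignment was to GRCm38 with ERCC sequences, by HISAT2, per the file headers (version 2.1.0 in the submitters' processing notes, which also name Trim Galore 0.6.5 and cutadapt 2.3). The authors deposited 2 tables of raw read counts per gene. Strand, multiple matches, read pairs, duplicates and annotation release are not given in the sources used here; 30 members overlap another gene, 4 of them on the same strand. Lines with the same identifier were summed. Libraries under 100000 counts were left out (19, including all 6 IgG libraries of replicate 2).

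Counts were tested with edgeR 4.0.16 (R 4.3.3): TMM scaling, filterByExpr, robust quasi-likelihood F test, Benjamini-Hochberg adjustment over all genes, threshold 0.05, on the groups compared, without the replicate number. DESeq2 1.42.0, other scaling, filters and minimum counts, left-out replicates and a replicate block were alternatives. The code was tested on simulated data. CPM values were scaled by TMM within each table. Per the submitters, replicate numbers mark pools of embryos, and by the file headers those of the deletion table are also lanes. The replicate block took them to pair the groups, and the main fits did not. The labels do not say that groups with the same number share a day. The 7 anti-SMARCA5 libraries of replicate 2 had no kept IgG or uninjected library of that number. Same-numbered deviations correlated at 0.52 (deletion), 0.576 (anti-SMARCA5 and IgG), 0.0731 (anti-SMARCA5 and uninjected) and 0.416 (IgG and uninjected).

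Members and lists were chosen with earlier results of these data known. Members named in the text were 14 fixed ones (Tbp, Tbpl1, Tbpl2, Polr2a, Polr2b, Gtf2b, Gtf2a1, Gtf2a1l, Taf1, Taf4b, Taf7l, Med1, Med12, Med14), up to 10 that rose and 10 that fell most after deletion (average log2 CPM of at least 4, same sign in both replicates), up to 6 each way per TrimAway comparison, up to 6 per test of a difference and up to 2 each way per other list; the rest, given for their role in a complex, were chosen after their values were seen.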

Additional observations from a re-analysis of the deposited data

Results flagged for a closer look

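The change after maternal deletion differed from that after TrimAway, by the test of the difference itself, for 21 members (log2 difference, deletion minus anti-SMARCA5 over IgG, adjusted p under 0.05 in edgeR). It was positive for Gtf2a1l (6.29), Taf7l (4.19), Med12l (1.56), Polr2j (1.51), Taf13 (1.44), Taf10 (0.84) and Taf3 (0.78). For Gtf2a1l, with at most 3 counts in every wild-type library, and Taf7l, with more than 3 in only 2 of 22, the fitted size depends on the prior count and is no bound. It was negative for the polymerase subunits Polr2k (-2.85) and Polr2d (-1.58), for Tbp (-1.72), for the Taf9 line (-1.57), Taf7 (-1.47) and Taf1d (-1.66), for Gtf2f1 (-2.53), Gtf2f2 (-2.30) and Gtf2h5 (-1.69), and for the Mediator subunits Med29 (-2.55), Med7 (-1.92), Med31 (-1.60), Med4 (-1.50) and Med13 (-1.05). The 21 were among 83 members tested, beside 19.2% of all 12035 genes. With the replicate block 10 members passed, beside 11.7% of all genes. The sizes listed here are from the fit without the block. Each group held more than 10 libraries, so no single library was tested for standing apart.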

How the results depend on the processing

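The count of members past the threshold in maternal deletion against wild type was 46 and lay between 36 and 52 under 8 alternatives. It lay between 27 (without replicate 2) and 33 when a replicate was left out. Over all genes 56.6% passed, 41.3% to 62.0% under the 8 alternatives, and 43.8% and 39.9% without replicates 2 and 1. For anti-SMARCA5 against IgG the single call became 2 with DESeq2 size factors, 2 with total counts only, 9 without a filter on low counts, 9 in DESeq2, 5 with all libraries, 5 without the antibody library that had no Trim21, 0 to 5 when a replicate was left out, 30 with the replicate block and 23 within replicate 3; the last was chosen after seeing the data. In the same order, 2.54%, 0.613%, 13.5%, 9.85%, 6.56%, 5.02%, 0% to 5.85%, 25.8% and 16.5% of all genes passed, beside 3.03% in the main fit. For anti-SMARCA5 against uninjected, 21 calls (27.9% of all genes) became 8 within replicate 1 (15.6%) and 29 within replicate 3 (26.7%), both also chosen after seeing the data. They became 0 to 24 when a replicate was left out (0.00948% to 28.4% of all genes). For IgG against uninjected, 0 became 1 without the filter (4.2% of all genes) and 2 in DESeq2 (2.09%). The differences between deletion and TrimAway, 21 (19.2% of all genes), became 10 with the replicate block (11.7%). The cause was not tested. Of 924 values of single genes under the alternatives, 843 stayed on their side of the threshold. A change of sign was counted only where the main or the alternative value passed. By that count 2 changed sign, both for Med14 in anti-SMARCA5 against uninjected. Med14 stood at -0.79 to 0.02 when a replicate was left out, 0.02 being without replicate 1, and at 0.04 within replicate 3. Values that passed in neither fit could change sign uncounted, such as Gtf2a1 after the deletion, which went down to -0.15. In anti-SMARCA5 against uninjected the block took the members that fell from 12 to 23 and the total from 21 to 30; beyond the totals given above it moved none by over 1.5 times. Wild-type libraries had the lowest median depth (545264 counts) but also the deepest library (12004992 counts). The shallow ones limit what can be said of Tbpl2, Gtf2a1l and Taf7l, which had 40, 2 and 208 counts in total in wild type.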
